A study of Mus musculus with 12 samples.

Results

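The amino acid transporter genes described here were all genes whose symbol starts with Slc1a, Slc3a, Slc6a, Slc7a, Slc36a, Slc38a or Slc43a. Their products are solute carriers, and the choice by name used no measured value. The bulk count table held 62 of them among 45808 genes, and the single-cell files held 63 among 31055 genes, the additional gene being Slc6a21. Slc6a had 21 genes, Slc7a 15, Slc38a 11, Slc1a 7, Slc36a 4, Slc43a 3 and Slc3a 2, and 4 antisense names were left out.

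The series compared the hormone-producing cells of the mouse islet, with an emphasis on the γ-cells that make pancreatic polypeptide (Ppy). For single-cell RNA-seq, islets of the ventral pancreas of Ppy-rtTA;TetO-Cre;R26-YFP mice, pooled over animals, were sorted into YFP+ and YFP- cells in 2 experiments, which gave 4 libraries. For bulk RNA-seq, YFP+ cells were sorted from the same line (γ, 5 libraries) and from Sst-Cre;R26-YFP mice, in which the promoter of the somatostatin gene drives Cre (δ, 3 libraries). The labels give doxycycline at 1 mg/ml in the drinking water and an age of 2 months for every group, a mixed strain background and mice of both sexes. In the Ppy line the transactivator takes the place of 1 Ppy allele, and YFP records that the Ppy promoter has been active in a cell, not that it still is. No group without the transgenes was among those used.

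Carriers of these families move amino acids, or close relatives such as taurine, creatine and neurotransmitters, across the plasma membrane and the membranes of lysosomes and vesicles. Slc38a and Slc1a proteins couple uptake to sodium, some Slc36a proteins couple it to protons, and most light chains of the Slc7a family work as exchangers joined to a heavy chain of the Slc3a family. In islets, arginine depolarises β-cells after entry through cationic carriers, amino acids are strong stimuli of glucagon secretion, and glutamine supply through Slc38a5 is known from work on α-cell proliferation.

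The single-cell libraries held between 10683494 and 18330975 unique molecular identifiers (UMIs), with medians of 4237 to 8338 per cell. After removal of 129 likely doublets from 5982 cells, 6 clusters led by other cell types were removed. Cells were then put into hormone classes by their Ppy, Gcg, Ins2 and Sst levels. Cells with 1 hormone also had to lie in a cluster of that hormone. Cells with Ppy and a second hormone were taken from any kept cluster, whereas the study left out those outside their own cluster. Clustering the remaining cells again still gave a cluster of 54 cells led by acinar genes and high in Ppy. It was kept, as were clusters of 136 and 31 cells led by lymphoid genes and by Tff3. The classes in experiments 1 and 2 held 587 and 662 Ppy+ cells, 297 and 290 Gcg+ cells, 434 and 88 Ins2+ cells, 119 and 120 Sst+ cells, 386 and 374 Ppy+Gcg+ cells, 175 and 214 Ppy+Sst+ cells, and 84 and 39 Ppy+Ins2+ cells. UMIs were summed per class and experiment, so n was 2 throughout, and levels are CPM, counts scaled to a common library size after TMM normalization, which sets the typical gene equal between sums. The TMM library size was 0.511 and 0.635 of the total UMIs in Ins2+ cells, 0.826 and 0.824 in Ppy+ cells, 1.09 and 1.16 in Gcg+ cells, and 1.45 and 1.62 in Sst+ cells. On total UMIs the log2 fold change of the median gene was 1.06 in Gcg+ against Ins2+ cells, -1.46 in Ins2+ against Sst+ cells and -0.87 in Ppy+ against Sst+ cells, so differences are relative to the typical gene, and calls lost on total UMIs are named beside each result. That scale was added after the values had been seen. Of the 1249 Ppy+ cells, 1240 came from YFP+ libraries, whereas 1347 of the 1348 Gcg+, Ins2+ and Sst+ cells came from YFP- libraries, so class and library cannot be told apart in comparisons with Ppy+ cells. The summed level of 13 lymphoid markers moved with that split. It was 9.34 to 16.1 CPM in Ppy+ cells and 303 to 636 CPM in the other monohormonal classes, where Igkc alone was at 261 to 496 CPM. Acinar and macrophage sums were also lower in Ppy+ cells, whereas ductal, endothelial, stromal and glial sums overlapped those of the other classes. The part of such RNA in the comparisons was not tested. Across libraries, 19 cell barcodes occurred more than once.

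Most of these genes were faint in single cells. They made up 0.0638% of the UMIs of the classes, 24 of the 63 had fewer than 3 UMIs over all classes, and 15 of those had none. The undetected genes included the glial and neuronal carriers Slc1a3, Slc6a3 and Slc6a4. A further 16 had at least 3 UMIs but too few to test, and the remaining 23 were tested. Among the 7 Slc1a genes, which carry glutamate and small neutral amino acids, none could be tested, compared with 8 of 11 Slc38a genes and 7 of 15 Slc7a genes. The summed level of all members was 988 and 900 CPM in Gcg+ cells, 855 and 809 CPM in Ins2+ cells, 634 and 637 CPM in Sst+ cells, and 577 and 552 CPM in Ppy+ cells. On total UMIs the sums were 1082 and 1041 CPM in Gcg+ cells, 922 and 1031 CPM in Sst+ cells, 437 and 514 CPM in Ins2+ cells, and 476 and 455 CPM in Ppy+ cells. Gcg+ cells were the highest on both scales. Ppy+ cells were the lowest after TMM normalization, but on total UMIs Ins2+ cells were lower in experiment 1. On UMIs of genes other than the hormone genes, without TMM, Ppy+ cells were again the lowest, at 656 and 618 CPM. There Ins2+ cells were at 864 and 928 CPM, Sst+ cells at 1181 and 1224 CPM, and Gcg+ cells at 1607 and 1555 CPM.

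**Figure D1:**
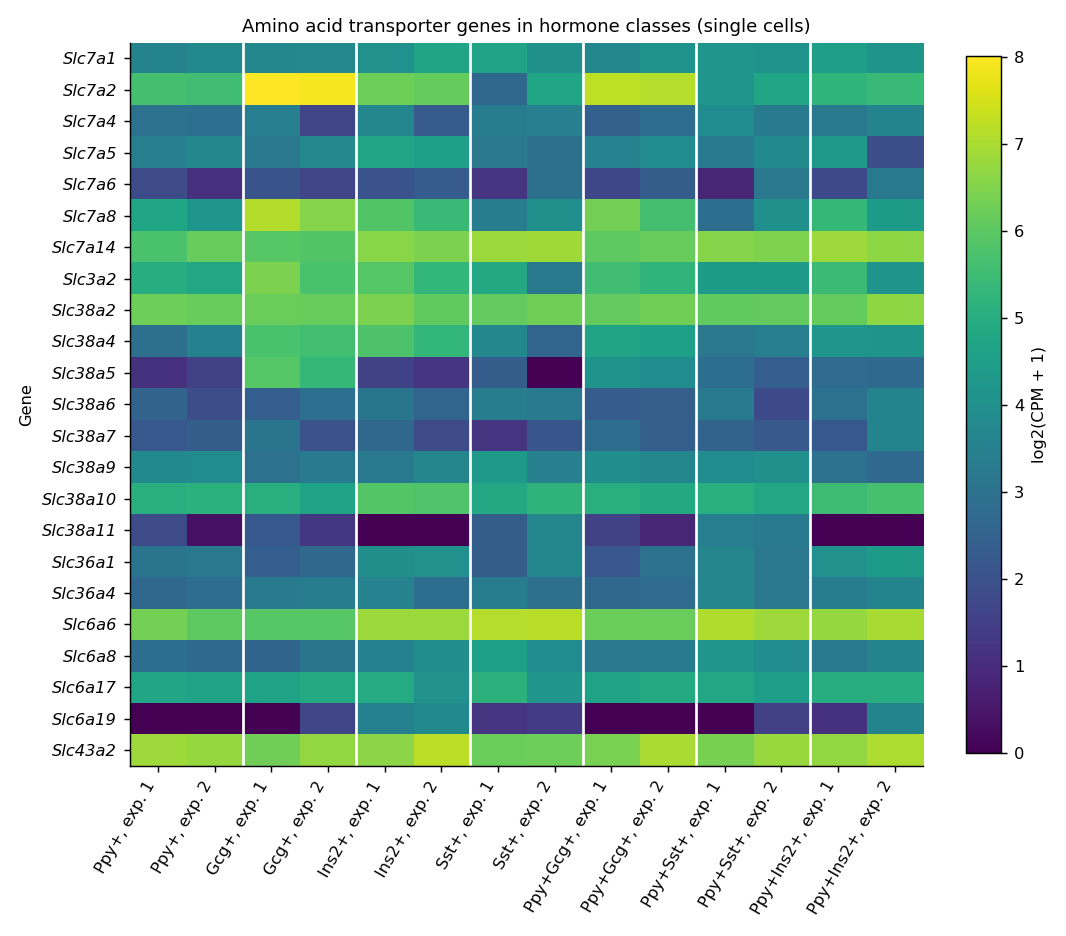
Level of the 23 tested carrier genes, as log2(CPM + 1), in each hormone class and experiment. Slc7a2 in Gcg+ cells is the brightest field, Slc43a2, Slc38a2 and Slc6a6 are bright in every class, and Slc6a19 and Slc38a11 are at 0 in several sums.

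A set of 5 carriers was high in Gcg+ cells, namely the sodium-coupled carriers Slc38a5 and Slc38a4, the cationic amino acid carrier Slc7a2, and the exchanger chain Slc7a8 (LAT2) with its heavy chain Slc3a2. Slc38a5, Slc7a2 and Slc7a8 were higher in Gcg+ cells than in each other monohormonal class, while Slc38a4 and Slc3a2 were not called different between Gcg+ and Ins2+ cells. Slc38a5 (GRCm38, chromosome X, 8271381 to 8280179), which imports glutamine and other neutral amino acids, was at 58.6 and 39.2 CPM in Gcg+ cells in experiments 1 and 2. It was at 1.2 and 1.92 CPM in Ppy+ cells, 1.9 and 1.29 CPM in Ins2+ cells, and 4.13 and 0 CPM in Sst+ cells. Every Gcg+ value was above every value of the other monohormonal classes. Slc38a5 was also the only member among the 1000 variable genes on which the cells were clustered, and it led the Gcg+ cluster, so its difference between classes was in part used in forming them.

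Slc7a2 (chromosome 8, 40862341 to 40922070), which carries arginine, lysine and ornithine, was the member with the highest level in Gcg+ cells, at 257 and 240 CPM. Ins2+ cells had 74.1 and 68.5 CPM, Ppy+ cells 49.6 and 46.4 CPM, and Sst+ cells 5.5 and 25.5 CPM. The 4 classes did not overlap. On total UMIs Gcg+ cells stood apart (282 and 278 CPM), but Ins2+ cells (37.9 and 43.5 CPM) overlapped Ppy+ cells (40.9 and 38.3 CPM) and Sst+ cells (8 and 41.2 CPM). Slc7a8 (chromosome 14, 54722215 to 54781886), an exchanger of large neutral amino acids, was at 134 and 92.5 CPM in Gcg+ cells, 55.9 and 41.3 CPM in Ins2+ cells, 25.3 and 17.6 CPM in Ppy+ cells, and 9.63 and 15.3 CPM in Sst+ cells. The classes did not overlap for Slc7a8 either, and on total UMIs Gcg+ cells (147 and 107 CPM) again stood apart, while Ppy+ (20.9 and 14.5 CPM) and Sst+ cells (14 and 24.7 CPM) overlapped.

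Slc38a4 (chromosome 15, 96994816 to 97055956), a carrier of neutral and cationic amino acids, was shared by Gcg+ cells (51.1 and 47 CPM) and Ins2+ cells (53.6 and 38.8 CPM). It was at 6.74 and 10.4 CPM in Ppy+ cells and 12.4 and 5.1 CPM in Sst+ cells, and these pairs overlapped within each couple but not between them. Between Gcg+ and Ins2+ cells the log2 fold change was -0.01 (adjusted p = 0.981), but on total UMIs Ins2+ cells were at 27.4 and 24.6 CPM, below the 56 and 54.4 CPM of Gcg+ cells. Slc3a2 (chromosome 19, 8706882 to 8723369) was at 84.4 and 51.4 CPM in Gcg+ cells, 59.3 and 38.8 CPM in Ins2+ cells, 31 and 26.4 CPM in Ppy+ cells, and 27.5 and 8.49 CPM in Sst+ cells. Gcg+ and Ins2+ cells overlapped for Slc3a2, as did Ppy+ and Sst+ cells. The Slc3a2 difference between Gcg+ and Ins2+ cells was 0.44 (adjusted p = 0.038, under the fold threshold) and 1.49 on total UMIs (adjusted p = 6.43e-09).

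**Figure D2:**
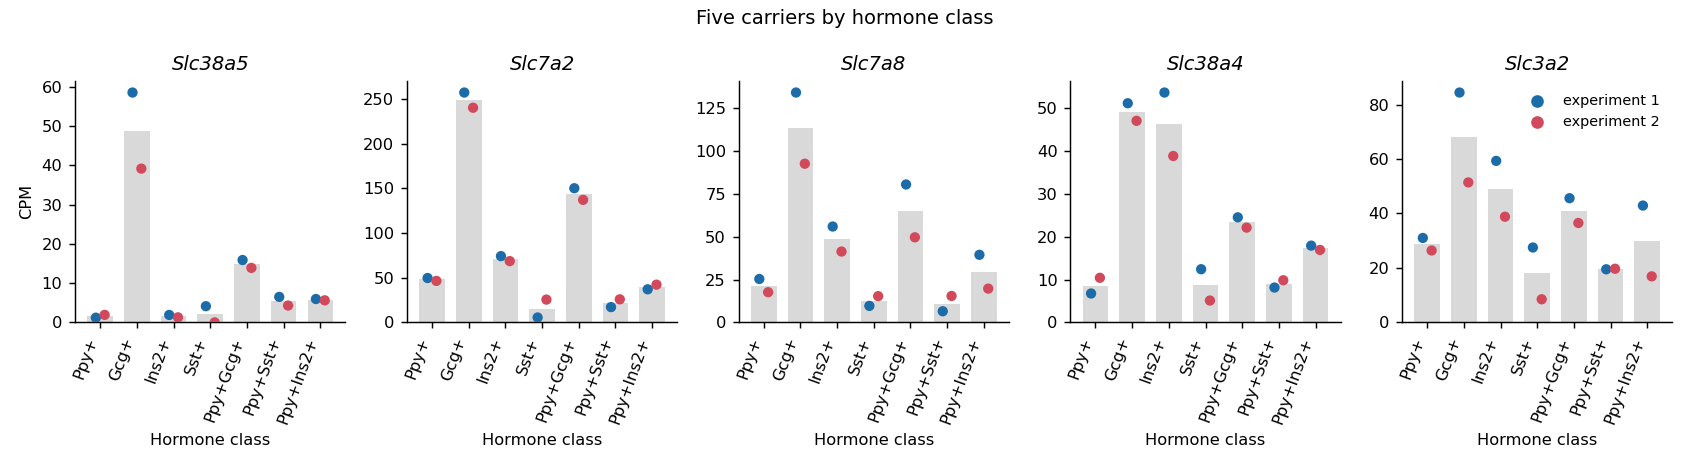
Levels in CPM of the 5 genes of the Gcg+ set by hormone class, with 1 point per experiment and a bar at the mean. Ppy+Gcg+ cells sit between Ppy+ and Gcg+ cells for Slc38a5 (15.9 and 13.9 CPM) and Slc7a2 (150 and 137 CPM).

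The windows around the transcription starts of members of this set, which were high in Gcg+ cells, are printed from RefSeq on GRCm38.p6. Each holds 300 bases on the strand of the gene, of which 250 precede the start. The Slc3a2 window lies inside the span of that gene given above, at an internal start and not at the gene's outer end. Slc7a2 had no window in the table. The window of Slc1a4, a carrier of alanine, serine and cysteine, is shown beside them because it held the amino acid response motif named next. Capitals mark matches to TGATGNAAN, the amino acid response element, or TAATTA, the core letters bound by many homeodomain factors, each searched on both strands.
Slc38a5, chrX:8271131-8271430, plus strand: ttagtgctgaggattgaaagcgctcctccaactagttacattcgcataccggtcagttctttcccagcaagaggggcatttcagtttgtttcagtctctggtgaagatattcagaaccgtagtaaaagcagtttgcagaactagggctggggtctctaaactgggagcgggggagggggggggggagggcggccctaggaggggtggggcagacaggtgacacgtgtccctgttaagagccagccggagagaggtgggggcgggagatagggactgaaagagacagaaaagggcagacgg
Slc7a8, chr14:54781837-54782136, minus strand: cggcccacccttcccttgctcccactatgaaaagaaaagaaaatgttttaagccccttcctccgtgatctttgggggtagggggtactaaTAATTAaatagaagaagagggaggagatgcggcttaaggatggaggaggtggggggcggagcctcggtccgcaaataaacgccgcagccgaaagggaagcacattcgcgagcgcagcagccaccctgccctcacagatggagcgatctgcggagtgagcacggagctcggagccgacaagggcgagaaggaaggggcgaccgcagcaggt
Slc38a4, chr15:97055907-97056206, minus strand: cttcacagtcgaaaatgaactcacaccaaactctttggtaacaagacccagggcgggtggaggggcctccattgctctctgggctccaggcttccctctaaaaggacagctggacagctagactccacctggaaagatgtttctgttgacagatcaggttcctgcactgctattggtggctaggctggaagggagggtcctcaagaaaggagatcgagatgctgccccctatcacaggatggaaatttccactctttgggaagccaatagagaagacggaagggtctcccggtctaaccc
Slc3a2, chr19:8713848-8714147, minus strand: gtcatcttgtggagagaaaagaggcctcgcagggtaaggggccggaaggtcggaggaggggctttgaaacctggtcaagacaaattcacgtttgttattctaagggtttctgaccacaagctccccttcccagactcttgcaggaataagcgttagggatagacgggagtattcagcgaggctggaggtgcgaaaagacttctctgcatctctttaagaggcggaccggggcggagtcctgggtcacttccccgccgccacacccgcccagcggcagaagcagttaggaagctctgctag
Slc1a4, chr11:20332664-20332963, minus strand: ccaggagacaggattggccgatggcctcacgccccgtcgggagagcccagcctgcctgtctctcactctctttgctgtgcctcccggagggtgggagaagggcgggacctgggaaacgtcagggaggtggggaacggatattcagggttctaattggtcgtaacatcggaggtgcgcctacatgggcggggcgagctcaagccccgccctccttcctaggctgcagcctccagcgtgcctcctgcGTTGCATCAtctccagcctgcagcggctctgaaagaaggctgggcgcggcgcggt

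Of the 63 members, 45 had at least 1 such window. TGATGNAAN was found in 4 of these 45 genes (8.89%), namely Slc7a11, Slc6a21, Slc1a4 and Slc7a7, and in 1215 of 27025 genes (4.5%) overall. TAATTA was found in 5 of 45 members (11.1%) against 6.12% of all genes, and TGCTGAC, the core of a MAF recognition element, in 1 (2.22%) against 5.28%. The last 2 motifs were added after the values had been seen. Of the members of the Gcg+ set with a window, Slc7a8 alone held a match, a TAATTA beginning 160 bases before the start. In Slc1a4 the match was GTTGCATCA, the reverse complement of the motif, beginning 5 bases before the start. A match is a run of letters and not a measured site.

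In the comparison of Ppy+ with Gcg+ cells, 6 of the 23 tested members passed an adjusted p of at most 0.05 and a fold above 0.721 on the log2 scale, against 12.9% of all 10205 genes tested. Of these, 5 were lower in Ppy+ cells (6.98% of all genes) and 1 was higher (5.97% of all genes). By edgeR's quasi-likelihood test with Benjamini-Hochberg adjustment and the experiment as a block, the log2 fold change was -4.95 ± 0.29 (SE) for Slc38a5 (adjusted p = 7.22e-16), -2.53 ± 0.20 for Slc38a4 (adjusted p = 4.32e-12), -2.40 ± 0.17 for Slc7a8 (adjusted p = 1.08e-13), -2.37 ± 0.14 for Slc7a2 (adjusted p = 1.6e-15) and -1.23 ± 0.16 for Slc3a2 (adjusted p = 2.5e-07). Slc38a9, the lysosomal arginine sensor of the mTORC1 pathway, was at 13.2 and 13.7 CPM in Ppy+ cells and 7.15 and 8.88 CPM in Gcg+ cells (log2 fold change 0.75 ± 0.27, adjusted p = 0.0442). The Slc38a9 call was lost in 10 of 12 alternatives, on total UMIs among them (0.3, adjusted p = 0.406), and the 5 others passed on total UMIs as well. With the library as a block, which links the classes through cells with 2 hormones, Slc38a5, Slc7a2, Slc7a8 and Slc38a4 passed, whereas Slc3a2 (-0.55, adjusted p = 0.262) and Slc38a9 (0.61, adjusted p = 0.582) did not. Slc38a5 was at -4.3 without experiment 1 and -5.55 without experiment 2, and Slc38a4 at -1.76 with the library block. The median log2 fold change was -0.09 over the 23 members and -0.02 over all genes.

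After TMM normalization Slc6a19 and the large neutral carrier Slc7a5 were higher in Ins2+ cells than in each other monohormonal class, and the lysosomal carrier Slc36a1 was higher than in Ppy+ and Gcg+ cells. Slc6a19 (chromosome 13, 73679745 to 73700780), the neutral amino acid carrier best known from the brush border of gut and kidney, was at 10.6 and 12.9 CPM in Ins2+ cells. Ppy+ cells had no UMI for it, which allows up to 0.385 CPM over the class, and the other monohormonal sums lay between 0 and 2.22 CPM. A list of 10 intestinal epithelial markers, chosen after values had been seen, summed to 0.715 to 26.9 CPM in the YFP- classes of experiment 1 and to 170 to 243 CPM in those of experiment 2. The part of intestinal RNA in the Slc6a19 level was not tested.

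Slc7a5 (LAT1; chromosome 8, 121881146 to 121907686), which exchanges leucine and other large neutral amino acids, was at 25.2 and 22 CPM in Ins2+ cells, and the other monohormonal sums lay between 6.8 and 12.6 CPM. For Slc36a1 the levels were 14.6 and 15.5 CPM in Ins2+ cells and 4.13 to 11.9 CPM in the others. Slc38a10 (chromosome 11, 120103951 to 120151351) was at 57.6 and 55.5 CPM in Ins2+ cells against 24.1 to 35.7 CPM elsewhere. After TMM normalization the Ins2+ values of all 3 genes lay above every other monohormonal value. On total UMIs this did not hold, with Slc7a5 at 12.9 and 14 CPM in Ins2+ and 9 and 14.6 CPM in Gcg+ cells, Slc36a1 at 7.46 and 9.85 CPM in Ins2+ and 6 and 19.2 CPM in Sst+ cells, and Slc38a10 at 29.5 and 35.3 CPM in Ins2+ and 40 and 57.7 CPM in Sst+ cells. Slc6a19, at 5.43 and 8.21 CPM in Ins2+ cells on that scale, stayed above the other monohormonal values, the highest being 2.75 CPM.

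Against Ins2+ cells, 9 of the 23 members passed in Ppy+ cells, 8 lower and 1 higher, where 26.7% of all genes passed (14.3% lower, 12.3% higher). Slc6a19 was at least 28.3-fold lower in Ppy+ cells, with a floor of 3 UMIs over the class (adjusted p = 5.3e-08). Slc38a4 differed by -2.53 (adjusted p = 2.84e-12), Slc7a5 by -1.19 (adjusted p = 0.000181), Slc7a8 by -1.17 (adjusted p = 7.09e-06), Slc36a1 by -1.0 (adjusted p = 0.00555), Slc6a8 by -0.85 (adjusted p = 0.0266), Slc3a2 by -0.8 (adjusted p = 0.000374) and Slc38a10 by -0.77 (adjusted p = 0.000121), all as log2 fold changes. Slc38a11 had no UMI in Ins2+ cells. Ppy+ cells exceeded that floor by at least 3.11-fold (adjusted p = 0.0125), with 11 UMIs in experiment 1 and 1 in experiment 2. The median log2 fold change of the members was -0.64, against 0 for all genes. With the library as a block Slc3a2 (adjusted p = 0.855), Slc36a1 (adjusted p = 0.354), Slc6a8 (adjusted p = 0.275), Slc38a10 (adjusted p = 0.0633) and Slc38a11 (adjusted p = 0.0804) did not pass. On total UMIs Slc7a5 (-0.58), Slc7a8 (-0.57), Slc36a1 (-0.4), Slc6a8 (-0.24), Slc38a10 (-0.19) and Slc3a2 (-0.18) fell short of the threshold, and 4 members passed, 2 in each direction (44.8% of all genes, 38.9% higher and 5.9% lower). Slc38a4 was at -1.89 without experiment 1 and -1.73 with the library block.

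Among the monohormonal classes Sst+ cells carried the highest levels of Slc6a6 and Slc7a14. After TMM normalization neither passed edgeR's test in Ins2+ against Sst+ cells. The log2 fold changes were -0.34 for Slc6a6 (adjusted p = 0.139) and -0.27 for Slc7a14 (adjusted p = 0.3). Slc6a6 (chromosome 6, 91684048 to 91759063), the taurine carrier, was at 138 and 141 CPM in Sst+ cells, 112 and 110 CPM in Ins2+ cells, 79.7 and 63.8 CPM in Ppy+ cells, and 59.4 and 59.9 CPM in Gcg+ cells, with no overlap between these classes. On total UMIs Sst+ cells alone stood apart for Slc6a6 (200 and 228 CPM), and the other classes overlapped (52.5 to 69.8 CPM). Slc7a14 (chromosome 3, 31202854 to 31310567), a lysosomal relative of the cationic carriers, was at 111 and 116 CPM in Sst+ cells, 96.1 and 85.3 CPM in Ins2+ cells, 51.7 and 69.3 CPM in Ppy+ cells, and 60.1 and 55.9 CPM in Gcg+ cells, where the last 2 classes overlapped. On total UMIs it was at 162 and 187 CPM in Sst+ cells against 42.7 to 65.7 CPM elsewhere. The creatine carrier Slc6a8 (chromosome X, 73673133 to 73682502) was at 22 and 13.6 CPM in Sst+ cells, 10.4 and 14.2 CPM in Ins2+ cells, 6.5 and 5.77 CPM in Ppy+ cells, and 5.01 and 7.4 CPM in Gcg+ cells. Sst+ values for Slc6a8 overlapped those of Ins2+ cells and lay above those of Ppy+ and Gcg+ cells.

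In Ppy+ against Sst+ cells, 4 of 23 members passed, 3 lower and 1 higher, where 11.9% of all genes passed (6.72% lower, 5.17% higher). Slc6a8 (-1.56 ± 0.40, adjusted p = 0.00543), Slc6a6 (-0.95 ± 0.15, adjusted p = 1.56e-05) and Slc7a14 (-0.91 ± 0.17, adjusted p = 0.000137) were lower on the log2 scale in Ppy+ cells, and Slc7a2 was higher (1.73 ± 0.32, adjusted p = 0.000164). The last value was 0.83 on total UMIs (adjusted p = 0.055), and it rested on unequal experiments, being 0.86 without experiment 1 and 3.15 without experiment 2. On total UMIs 13 members passed, all lower in Ppy+ cells (41.2% of all genes lower, 1.39% higher). Slc43a2 (LAT4), a facilitative carrier of branched-chain amino acids and the member with the highest Ppy+ level at 113 and 107 CPM, passed the p but not the fold (0.58, adjusted p = 0.0348), and on total UMIs its sign turned (-0.31, adjusted p = 0.23). Slc6a8 did not pass with the library as a block (-1.43, adjusted p = 0.112), nor Slc7a14 with cells thinned to 1000 UMIs (-0.79, adjusted p = 0.0857). The members' median was -0.17, against 0.02 for all genes. The 3 comparisons of Ppy+ cells used the same Ppy+ sums.

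The comparisons among Gcg+, Ins2+ and Sst+ cells lay within the YFP- libraries. Gcg+ against Ins2+ cells gave 10 of 23 members, 4 higher and 6 lower, where 22.5% of all genes passed (10.7% higher, 11.8% lower). Higher in Gcg+ cells were Slc38a5 (4.85 ± 0.31 on the log2 scale), Slc7a2 (1.78 ± 0.15), Slc7a8 (1.23 ± 0.16) and Slc38a11, the last by at least 5.13-fold. Lower were Slc6a19 (-3.65 ± 0.63), Slc36a1 (-1.68 ± 0.34), Slc7a5 (-1.3 ± 0.26), Slc38a10 (-1.01 ± 0.17), Slc6a6 (-0.88 ± 0.14) and Slc6a8 (-0.84 ± 0.33, adjusted p = 0.0499, lost in 9 of 12 alternatives). On total UMIs Slc36a1 (-0.64) and Slc7a5 (-0.24) did not pass, and Slc6a6 (0.13), Slc6a8 (0.21) and Slc38a10 (0.03) turned in sign without passing, so that 11 members passed as higher in Gcg+ cells and 1 as lower (65.5% and 3.0% of all genes). Slc6a19 was at -2.51 without experiment 1 and -7.86 without experiment 2, where Gcg+ cells had no UMI.

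Gcg+ against Sst+ cells gave 8 members, 5 higher and 3 lower, with 11.7% of all genes passing (5.39% higher, 6.34% lower). The 5 were Slc38a5 (4.41 ± 0.48), Slc7a2 (4.1 ± 0.26), Slc7a8 (3.23 ± 0.30), Slc38a4 (2.43 ± 0.35) and Slc3a2 (1.86 ± 0.28), which are the genes of the Gcg+ set, and the 3 were Slc6a8 (-1.55 ± 0.41), Slc6a6 (-1.22 ± 0.16) and Slc7a14 (-0.97 ± 0.17). Without experiment 1 Slc38a5 was at 9.23, Slc7a2 at 3.23, Slc7a8 at 2.59, Slc38a4 at 3.19, Slc3a2 at 2.59 and Slc6a8 at -0.87, and without experiment 2 Slc38a5 was at 3.8, Slc7a2 at 5.53 and Slc6a8 at -2.14. The Sst+ sums held the fewest UMIs, 499990 and 363797.

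Ins2+ against Sst+ cells also gave 8, 7 higher and 1 lower, with 15.1% of all genes passing (7.73% higher, 7.4% lower). The 7 were Slc6a19 (3.12 ± 0.92), Slc38a4 (2.44 ± 0.35), Slc7a2 (2.32 ± 0.31), Slc7a8 (2.0 ± 0.35), Slc7a5 (1.74 ± 0.44), Slc3a2 (1.42 ± 0.30) and Slc38a10 (0.85 ± 0.24). Slc38a11 was at least 15.3-fold lower in Ins2+ than in Sst+ cells, where it was at 4.13 and 11.9 CPM. Without experiment 1 Slc7a2 was at 1.42 and Slc3a2 at 2.18, and without experiment 2 Slc7a2 was at 3.74. On total UMIs Slc6a19 (1.72), Slc7a8 (0.52) and Slc7a5 (0.24) did not pass, Slc38a10 (-0.63) and Slc3a2 (-0.06) turned in sign, and 2 members passed as higher and 12 as lower in Ins2+ cells (1.26% and 68.0% of all genes).

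Some carriers differed little between classes after TMM normalization. Slc38a2 (SNAT2), a sodium-coupled carrier of small neutral amino acids, stayed between 65 and 98.6 CPM in all 14 sums and passed in none of the 9 comparisons, whereas on total UMIs it ran from 43.4 and 41.9 CPM in Ins2+ cells to 98 and 124 CPM in Sst+ cells. Over the 9 comparisons 14 of the 23 tested members (60.9%) passed at least once, as did 4530 of all 10205 genes (44.4%).

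Cells with Ppy and a second hormone were then compared with Ppy+ cells, as these classes came in the main from the same YFP+ libraries. From YFP- libraries came 88 of 760 Ppy+Gcg+, 133 of 389 Ppy+Sst+, 14 of 123 Ppy+Ins2+ and 9 of 1249 Ppy+ cells. Class and library were therefore still linked in part, most for Ppy+Sst+ cells. In Ppy+Gcg+ cells 4 of 23 members passed, all of them higher, where 3.1% of all genes passed (2.1% higher, 1.0% lower). Slc38a5 was at 15.9 and 13.9 CPM (3.24 ± 0.35 on the log2 scale), Slc7a8 at 80.4 and 49.6 CPM (1.59 ± 0.17), Slc7a2 at 150 and 137 CPM (1.57 ± 0.14) and Slc38a4 at 24.5 and 22.1 CPM (1.45 ± 0.22). Each lay above the Ppy+ and below the Gcg+ values. Within the YFP+ libraries alone, on total UMIs, Slc7a2 was at 149 and 133 CPM in Ppy+Gcg+ cells against 41 and 38.3 CPM in Ppy+ cells, Slc38a5 at 14.5 and 13 CPM against 0.996 and 1.6 CPM, and Slc7a8 at 83 and 46.3 CPM against 20.9 and 14.6 CPM.

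The level within Ppy+Gcg+ cells differed by the cluster in which they lay. Slc38a5 was at 48 and 65.5 CPM of total UMIs in the 97 and 39 Ppy+Gcg+ cells of Gcg clusters, at 10.7 and 10.3 CPM in the 153 and 147 cells of mixed Ppy and Gcg clusters, and at 3.78 and 8.37 CPM in the 131 and 172 cells of Ppy clusters. Slc7a2 was flatter, at 200 and 235 CPM, 151 and 154 CPM, and 138 and 112 CPM in the same order. The clusters were formed from these cells' own expression, so the order is a description.

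In Ppy+Sst+ cells 5 members passed, 4 higher and 1 lower than in Ppy+ cells, where 7.72% of all genes passed (5.29% higher, 2.43% lower). Slc38a11 was at 9.75 and 8.6 CPM (2.61 on the log2 scale), Slc6a8 at 17.1 and 13.5 CPM (1.28), Slc6a6 at 132 and 114 CPM (0.77) and Slc38a5 at 6.5 and 4.3 CPM (1.77, adjusted p = 0.0337), while Slc7a2 was lower at 17.1 and 25.8 CPM (-1.13; on total UMIs -0.47, adjusted p = 0.113). Except for Slc38a5, these members lay on the Sst+ side of the Ppy+ values. Of the 175 and 214 Ppy+Sst+ cells of experiments 1 and 2, however, 162 and 176 lay in Sst clusters. Those clusters were formed from the cells' own expression, so the order is a description. Without experiment 1 Slc38a11 was at 4.67 and Slc38a5 at 1.13, without experiment 2 at 1.88 and 2.41, and with the library as a block Slc38a5 did not pass (1.42, adjusted p = 0.112). In Ppy+Ins2+ cells 2 members passed, both higher, where 7.42% of all genes passed (4.88% higher, 2.54% lower). They were Slc7a14 at 113 and 98.6 CPM (0.85) and Slc6a19, which was at 1.19 and 11.3 CPM and at least 10.9-fold higher than in Ppy+ cells. The Slc6a19 value rested on 1 UMI in experiment 1 and 4 in experiment 2. Of the 84 and 39 Ppy+Ins2+ cells, 82 and 39 lay in Ins2 clusters. Since cells that hold 2 hormones can also be doublets, and 1 of the doublet callers marked only 0.167% of cells, the part of doublets in these intermediate levels was not tested.

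The bulk γ libraries held 14633838 to 31784878 counted reads and the δ libraries 7641916 to 11773598. The labels do not say whether libraries of a group came from separate mice, so p-values measure the spread between these libraries. All γ libraries were sequenced as read pairs and all δ libraries as single reads on another instrument, so cell type, sequencing layout and platform cannot be told apart. Ppy was at 95177 to 123905 CPM in γ and 9400 to 15506 CPM in δ, and Sst at 60259 to 87413 CPM in δ and 7392 to 12540 CPM in γ. The γ libraries also held Gcg at 46784 to 94384 CPM, and the summed level of 7 α-cell markers was 49304 to 97557 CPM in γ against 1964 to 6296 CPM in δ. The 15 acinar markers summed to 24348 to 103910 CPM in δ and 2666 to 15898 CPM in γ. The 9 β-cell markers summed to 10405 to 24426 CPM in γ and 3633 to 5096 CPM in δ. YFP+ cells were not split by a second hormone before bulk sequencing. The part of α-cell, β-cell, acinar and bihormonal-cell RNA in the members' differences was not tested. In such sorted pools fewer cells of a type and less RNA per cell cannot be told apart.

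In bulk 45 members were tested, 7 had fewer than 3 counts (Slc36a3, Slc6a5, Slc6a7, Slc6a18, Slc7a12, Slc7a13 and Slc7a15), and 10 others were too low to test. Of the 45, 13 passed an adjusted p of at most 0.05 and a log2 fold change of at least 1, 5 higher and 8 lower in γ, where 35.0% of all 17926 genes passed (20.7% higher, 14.2% lower). The members' median log2 fold change was -0.27, against -0.06 for all genes. Upper-quartile scaling, which moved the median of all genes to -0.35, gave 4 higher and 11 lower. These counts come without a share of all genes and are not read as particular to the members. The summed level of the members was 2484 to 2959 CPM in γ and 1609 to 1910 CPM in δ, without overlap. Per kilobase of exon the highest γ means were those of Slc38a10 (75.0 CPM per kb; 38.5 in δ), Slc3a2 (47.4; 25.1 in δ), Slc7a8 (43.3; 21.8 in δ) and Slc7a5 (37.8; 3.62 in δ). In δ, Slc38a10 was also the highest, followed by Slc6a6 (35.5 CPM per kb; 32.2 in γ) and Slc7a4 (32.2 CPM per kb; 18.7 in γ). Slc6a6 did not differ between the bulk groups, which overlapped (log2 fold change -0.14 ± 0.13, adjusted p = 0.387).

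The genes higher in γ were carriers of leucine and other large neutral amino acids, of arginine, and of small neutral amino acids. Slc7a5 was at 133, 163, 108, 153 and 143 CPM in γ libraries 1 to 5 and at 13.6, 15.1 and 11.6 CPM in δ libraries 1 to 3 (log2 fold change 3.38 ± 0.17, adjusted p = 1.01e-07). Slc43a2 (chromosome 11, 75529915 to 75577575) was at 275, 284, 212, 351 and 326 CPM in γ and 63.1, 76.5 and 76.5 CPM in δ (2.01 ± 0.17, adjusted p = 4.73e-06). The groups of both genes were apart in every library. Slc7a2 was at 207, 200, 152, 195 and 215 CPM in γ and 52, 32.9 and 28.6 CPM in δ (2.36 ± 0.21, adjusted p = 5.41e-06).

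Slc1a5 (ASCT2), a glutamine exchanger, was at 15.1, 20.6, 51.9, 23.3 and 20.1 CPM in γ and 9.83, 5.75 and 4.39 CPM in δ (1.99 ± 0.44, adjusted p = 0.00335). γ library 3 stood above the others, and the summed level of 12 stromal markers was 5643 CPM there against 1464 to 2335 CPM in the other γ libraries. In δ libraries 1 to 3 that sum was lower, at 1130, 448 and 89.2 CPM. Slc1a5 was at 105 and 159 CPM in stromal clusters, and the part of stromal RNA in its difference was not tested. Its relative Slc1a4 (chromosome 11, 20302180 to 20332713), whose window is printed above, was at 6.31, 7.86, 7.91, 11.1 and 6.4 CPM in γ and 3.05, 4.71 and 2.68 CPM in δ (1.18 ± 0.32, adjusted p = 0.0101). The groups of both genes did not overlap, but the Slc1a4 call was lost under upper-quartile scaling (0.88) and with counts thinned to the smallest library (0.9).

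**Figure D3:**
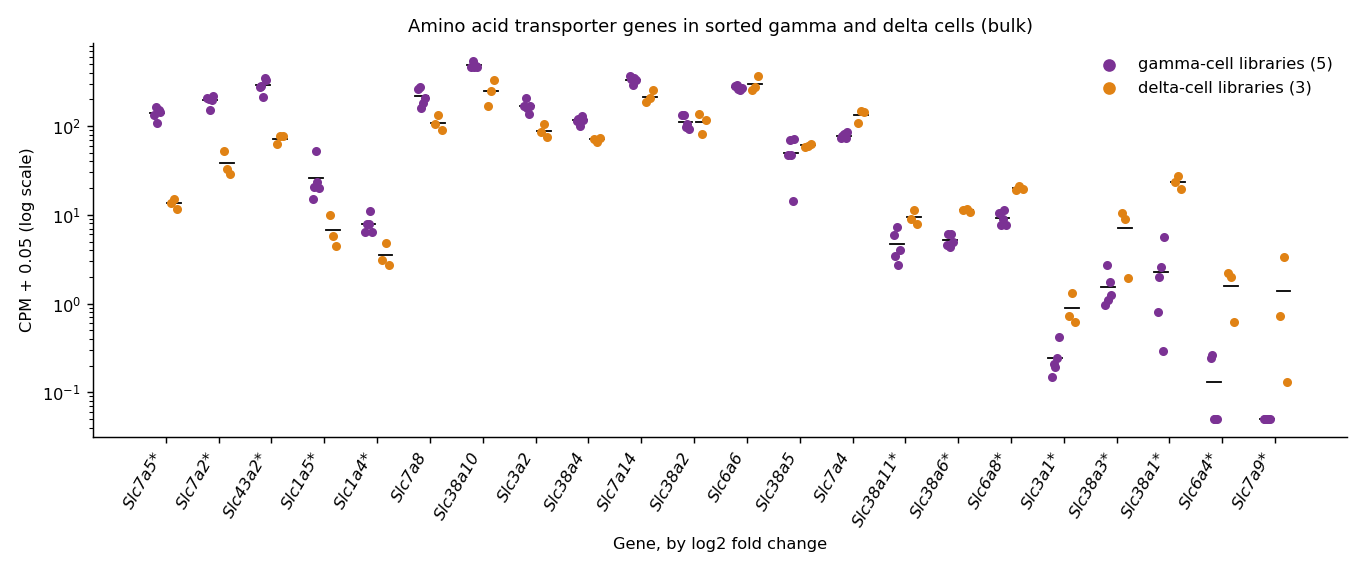
Level of 22 carrier genes in each bulk library, as CPM + 0.05 on a log axis, with 1 point for each of the 5 γ and 3 δ libraries, a line at the mean of each group, and an asterisk on genes that passed. Slc7a5 and Slc43a2 are apart in favour of γ and Slc38a1 in favour of δ, while Slc38a5 overlaps.

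Among the 8 genes lower in γ, Slc38a1 (SNAT1), a sodium-coupled glutamine carrier, was at 0.751, 1.94, 2.51, 0.241 and 5.58 CPM in γ and 23.5, 27.2 and 19.5 CPM in δ (-3.45 ± 0.68, adjusted p = 0.00171). The creatine carrier Slc6a8 was at 10.3, 7.7, 8.87, 11.2 and 7.59 CPM in γ and 19.2, 21.2 and 19.4 CPM in δ (-1.12 ± 0.19, adjusted p = 0.000527). Slc38a6 was at 4.57, 6.03, 4.29, 5.99 and 4.91 CPM in γ and 11.2, 11.7 and 10.6 CPM in δ (-1.11 ± 0.22, adjusted p = 0.0019). In these 3 genes every δ library lay above every γ library, and Slc38a1 was at -4.1 without γ library 5. Slc38a1 had 19 UMIs in the single-cell classes, too few to test, and was at 29.5 and 24.9 CPM in ductal clusters. The 12 ductal markers summed to 2357 to 3810 CPM in δ and 1499 to 1779 CPM in γ. Clu, which is among them, was also at 409 and 243 CPM in Sst+ cells. The part of ductal RNA in Slc38a1 was not tested. Slc38a11 (chromosome 2, 65313663 to 65364026) was at 5.82, 3.39, 7.18, 2.7 and 3.95 CPM in γ and 8.92, 11.2 and 7.73 CPM in δ (-1.01 ± 0.35, adjusted p = 0.0318), and this call was lost in 9 of 15 alternatives.

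The other members lower in γ were low or uneven in δ. Slc7a9, whose product joins that of Slc3a1 in the cystine and dibasic amino acid carrier of kidney and gut, had no read in γ and was at 0.678, 3.27 and 0.0813 CPM in δ. It was at least 49.4-fold lower in γ (adjusted p = 0.00765), and it was not tested without δ library 2, in which it was highest. Slc3a1 was at 0.678, 1.28 and 0.569 CPM in δ (-2.13 ± 0.67, adjusted p = 0.0212), a call lost with no filter on low counts (adjusted p = 0.0721). In δ libraries 1 to 3 the enterocyte gene Fabp1 was at 5.54, 48.8 and 0 CPM, and it was at 0 in every γ library. The 10 intestinal markers summed to 117 to 285 CPM in δ, with 6 to 10 of them above 0, and to 23.1 to 42.9 CPM in γ, with 1 to 4 above 0. The part of these cells in Slc7a9 and Slc3a1 was not tested.

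The glutamine carrier Slc38a3 was at 0.915, 2.64, 1.06, 1.69 and 1.19 CPM in γ and 10.4, 8.86 and 1.87 CPM in δ (-2.23 ± 0.56, adjusted p = 0.00673), and δ library 3 overlapped the γ values. Slc38a3 had 0 UMIs in the single-cell classes. The 15 acinar markers summed to 103910, 98212 and 24348 CPM in δ libraries 1 to 3, and the part of acinar RNA in Slc38a3 was not tested. The serotonin carrier Slc6a4 was at 0.196, 0.215, 0, 0 and 0 CPM in γ and 2.15, 1.92 and 0.569 CPM in δ (-4.02 ± 1.09, adjusted p = 0.01), and at -4.62 without γ library 1. Another 10 members passed the p but not the fold, among them Slc7a8 (0.99), Slc38a10 (0.96), Slc6a17 (0.93), Slc3a2 (0.92) and Slc38a4 (0.72) on the higher side and Slc36a1 (-0.87) and Slc7a4 (-0.78) on the lower side.

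Slc38a5, the gene that set Gcg+ cells apart, was at 47, 69.8, 47.5, 14.3 and 71.4 CPM in γ and 58.6, 59.5 and 62.7 CPM in δ. The groups overlapped and the test gave -0.27 ± 0.39 on the log2 scale (adjusted p = 0.581). Gcg was at 76867, 94384, 56041, 46784 and 75451 CPM in γ libraries 1 to 5. In the 3 δ libraries the 15 acinar markers summed to 103910, 98212 and 24348 CPM. The acinar cluster of the single-cell data, with 24 cells of experiment 1, had 40.7 CPM of Slc38a5. The parts of α-cell RNA in the γ level and of acinar RNA in the δ level were not tested.

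The γ against δ difference could be set beside that between Ppy+ and Sst+ cells for 23 members. In 16 of them (69.6%) the direction was the same, compared with 5108 of 9783 genes (52.2%), but with the single cells on total UMIs it was the same in 10 of the 23 (43.5%), against 51.5% of all genes. Of the 4 members that passed in single cells and the 6 that passed in bulk, 2 were shared, and over all genes 612 of 1152 and 3407. The shared members were Slc7a2 (1.73 in single cells and 2.36 in bulk, log2) and Slc6a8 (-1.56 and -1.12). Slc7a5 was at 0.55 ± 0.49 in single cells and 3.38 ± 0.17 in bulk, and Slc43a2 at 0.58 ± 0.19 and 2.01 ± 0.17. On total UMIs Slc7a5 was at 8.35 and 10.2 CPM in Ppy+ cells, below the 12 and 11 CPM of Sst+ cells. Slc7a14 had opposite signs, -0.91 in single cells and 0.63 in bulk (adjusted p = 0.00201). A test of these differences between data sets was not run.

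**Figure D4:**
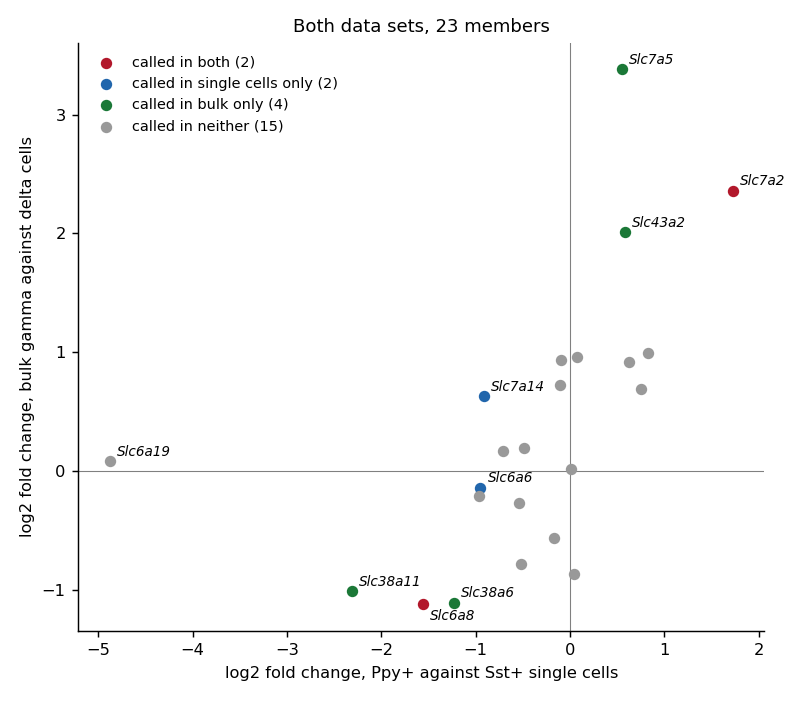
Log2 fold change of γ against δ bulk libraries (vertical) plotted against that of Ppy+ against Sst+ cells (horizontal) for the 23 carrier genes tested in both. Slc7a2 and Slc6a8 passed in both data sets, Slc7a5 lies high at 3.38 with 0.55 in single cells, and Slc7a14 lies in the quadrant of opposite signs. Slc6a19 had no UMI in Ppy+ cells, so its place on the horizontal axis is a fitted value and not a measured fold.

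Genes that act with the carriers were followed in 5 lists. Of 16 tested genes of the amino acid response, which the transcription factor ATF4 drives, 9 were lower in Ppy+ than in Ins2+ cells and none was higher, with a median log2 fold change of -0.93, where 14.3% of all genes were lower and 12.3% higher with a median of 0. Atf5 was at 111 and 59.4 CPM in Ins2+ cells and 8.9 and 8.25 CPM in Ppy+ cells, and Asns, the asparagine synthetase, at 37.5 and 27.1 CPM against 9.39 and 6.87 CPM. Ins2+ cells likewise had 8 of the 16 higher than in Sst+ cells (7.73% of all genes) and 9 of the 16 higher than in Gcg+ cells (11.8% of all genes), with 1 lower. On total UMIs 4 of the 16 were lower and 2 higher in Ppy+ than in Ins2+ cells (5.9% and 38.9% of all genes). The median was -0.35, against 0.6 for all genes. On that scale Ins2+ cells had 3 higher and 1 lower than in Sst+ cells (1.26% and 68.0% of all genes). Against Gcg+ cells they had 3 higher and 4 lower (3.0% and 65.5% of all genes). Ins2+ cells were the deepest, with 23905 and 12415 median UMIs per cell against 7734 and 5866.5 in Ppy+ cells. In Ppy+ against Gcg+ cells 1 of these genes was higher and 1 lower, and against Sst+ cells 2 were higher and 1 lower.

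Of 19 tested genes of glutamate, glutamine, GABA and arginine metabolism, 5 were lower in Ppy+ than in Gcg+ cells and none was higher, where 6.98% of all genes were lower and 5.97% higher. Glul, the glutamine synthetase, was at 32.7 and 24.5 CPM in Ppy+ cells and 73.7 and 52.2 CPM in Gcg+ cells (-1.13 ± 0.16 on the log2 scale, adjusted p = 1.43e-06). Arginase Arg1 was at 268 and 245 CPM in Sst+ cells, 27.9 and 43.7 CPM in Gcg+ cells and 1.68 and 2.2 CPM in Ppy+ cells. Arg1 and Slc7a2 therefore stood in a different order, with Sst+ cells highest in Arg1 and lowest in Slc7a2. Gad1, which makes GABA, was at 38.3 and 16.8 CPM in Ins2+ cells and had no UMI in Ppy+ cells.

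In the bulk data 7 of 19 tested genes of amino acid sensing and mTORC1 were higher in γ and none was lower, where 20.7% of all genes were higher and 14.2% lower, among them Rragc (3.55 ± 0.12, adjusted p = 2.29e-08) and Rragb (2.16 ± 0.15, adjusted p = 7.65e-07). In Ppy+ against Sst+ cells 1 of 18 was higher and none lower (5.17% and 6.72% of all genes). Rragc was at 12.5 and 15.7 CPM in Ppy+ cells and 13.8 and 28.9 CPM in Sst+ cells. On total UMIs 0 of the 18 were higher in Ppy+ cells and 8 lower (1.39% and 41.2% of all genes). Slc16a10, a carrier of aromatic amino acids from another family, was higher both in γ (2.53 ± 0.15, adjusted p = 3.66e-07) and in Ppy+ against Sst+ cells (1.23 ± 0.17, adjusted p = 1.61e-06). Its level was 128 and 173 CPM in Ppy+ cells and 55 and 73.1 CPM in Sst+ cells. On total UMIs that single-cell call was lost. There 0 of 9 tested carriers of other families passed as higher in Ppy+ cells and 2 as lower (1.39% and 41.2% of all genes).

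The 6 clusters led by markers of other cell types that were left out of the classes showed where several members that were faint in endocrine cells were found. Slc43a3, a purine nucleobase carrier, was at 401 and 325 CPM of total UMIs in endothelial and 162 and 237 CPM in stromal clusters. Slc1a5 was at 105 and 159 CPM in stromal clusters and at most 29.4 CPM in the others, and Slc38a1 was at 37.8 and 39.2 CPM in macrophage clusters and 29.5 and 24.9 CPM in ductal clusters. Slc6a6 was at 353 and 511 CPM in endothelial clusters. Slc38a11, absent from Ins2+ cells, was at 17.6 and 34.5 CPM in endothelial clusters, on 4 and 12 UMIs. The clusters shown held 24 to 362 cells per experiment, the acinar cluster of experiment 2 (8 cells) was left out, and no test was made between them.

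**Figure D5:**
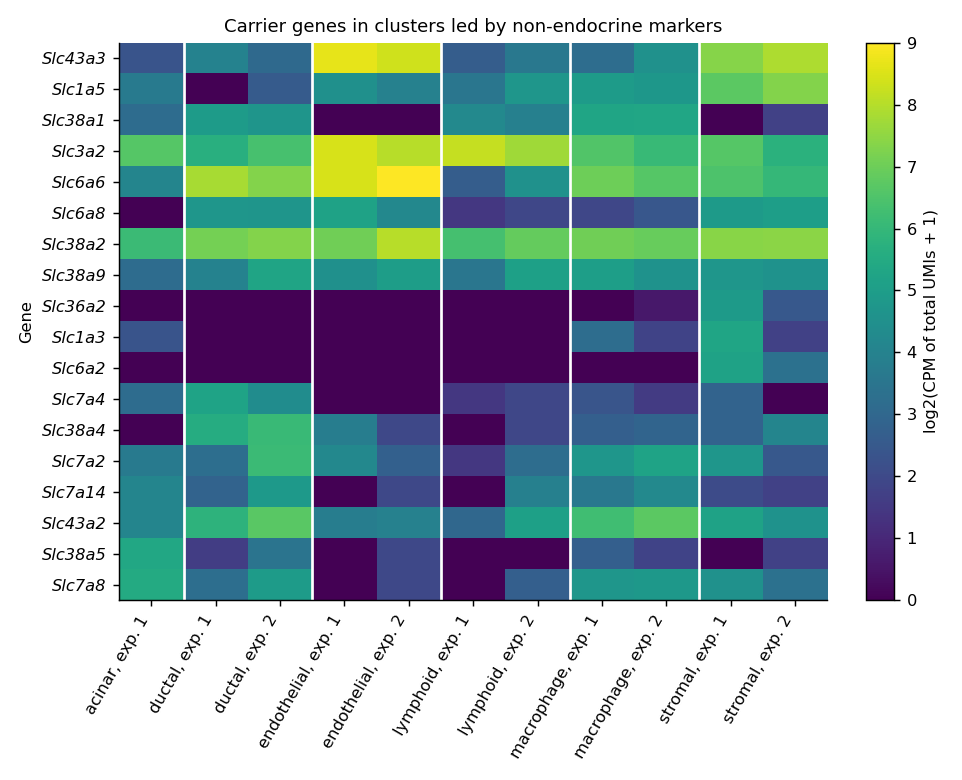
Level of 18 carrier genes, as log2(CPM of total UMIs + 1), in the clusters led by acinar, ductal, endothelial, lymphoid, macrophage and stromal markers, by experiment. Slc6a6 and Slc43a3 are brightest in endothelial clusters, and Slc1a5 in stromal clusters.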

How the data were processed

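Droplet single-cell RNA-seq (4 libraries) and bulk RNA-seq of sorted cells (5 γ and 3 δ libraries) were used, and 6 columns of other cell types in the bulk table were not. The deposited single-cell values are UMI counts per gene and cell, made by the authors with Cell Ranger on mm10 with YFP and rtTA sequences added. The deposited bulk values are read counts per gene, made by the authors with STAR 2.7.2b on GRCm38.p6 and HTSeq 0.9.1. Strand use in counting is not given in the sources used here.

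Cells had at least 500 genes, 1000 UMIs and at most 7% mitochondrial UMIs, which all 5982 deposited barcodes met. Doublets were removed with Scrublet in Scanpy 1.11.5, which marked 10 cells and therefore had hardly worked, and with a nearest-neighbour caller (120 cells). Cells were clustered with Seurat 5.3.0 on 1000 variable genes, and 6 clusters led by other cell types (1276 cells) were left out. UMIs were summed per class and experiment. Tests used edgeR 4.0.16 in R 4.3.3 (TMM, quasi-likelihood, Benjamini-Hochberg adjustment over all genes), with the experiment, shared by both libraries of a number, as a block in single cells. Single-cell sums passed filterByExpr, and bulk genes had at least 5 counts per library on average. SE was taken from the fold change and its F. Single-cell tests cover the spread between 2 experiments of pooled mice, and floors of 3 counts cover counting error only. On simulated counts, 98% to 100% of genes changed by a log2 fold of 2 in either direction were called. At log2 folds of -1 and 1, bulk calls were 36% and 20%, and Ppy+ against Gcg+ calls 60% and 80%. Only genes with higher counts were changed, and the simulated bulk spread was below the fitted one, so fainter members were not covered. Named genes were every called member, those with the 12 highest levels in each data set, and those hardly detected. The members, lists and comparisons were chosen with earlier results of these data known. Alternatives were other normalizations, library sizes without TMM, DESeq2 1.42.0, filters, thinning, thresholds, blocks and leaving out each replicate.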

Additional observations from a re-analysis of the deposited data

Results flagged for a closer look

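Among 44 members tested over the 5 γ libraries, 5 had 1 library far from the others, with a gap to the nearest library of more than 0.71 of the whole range. Chance gives this in about 1 in 20 groups. γ library 3 was high for Slc43a3 (25.8 CPM against 4.95 to 6.48, gap over range 0.927), Slc36a2 (2.6 CPM against 0 to 0.161, gap over range 0.938) and Slc1a5 (51.9 CPM against 15.1 to 23.3, gap over range 0.777). The 12 stromal markers, all above 0, summed to 5643 CPM in that library and to 1464 to 2335 CPM in the other γ libraries, and in the single cells Slc43a3 was at 162 and 237 CPM, Slc36a2 at 28.7 and 4.61 CPM and Slc1a5 at 105 and 159 CPM in stromal clusters. The part of stromal RNA was not tested. γ library 2 was high for Slc38a10 (545 CPM against 456 to 479, gap over range 0.738), and γ library 4 for Slc7a3 (1.06 CPM against 0 to 0.223, gap over range 0.79).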

How the results depend on the processing

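Of 56 member calls in single cells 24 were kept in every alternative with a test, and of 13 in bulk 9 were kept. Some members' values with an adjusted p of at most 0.05 in edgeR's main test turned in sign. They did so under the scales without TMM, added after the data were seen. On total UMIs these were Slc43a2 in Ppy+ against Sst+ (-0.31), Gcg+ against Ins2+ (0.62) and Ins2+ against Sst+ cells (-0.78), Slc6a6 (0.13), Slc6a8 (0.21), Slc7a14 (0.34) and Slc38a10 (0.03) in Gcg+ against Ins2+ cells, and Slc38a10 (-0.63) and Slc3a2 (-0.06) in Ins2+ against Sst+ cells. On UMIs of genes other than the 4 hormone genes, of these values only those of Slc43a2 turned (-0.16, 0.27 and -0.17). Values above that p in the main test could turn as well and are not listed. For Slc38a2 in Gcg+ against Ins2+ cells the log2 fold change was -0.18 after TMM normalization. On total UMIs its Gcg+ levels (77.9 and 81.8 CPM) lay above those of Ins2+ cells (43.4 and 41.9 CPM). On total UMIs 4 members (44.8% of all genes) passed in Ppy+ against Ins2+, 13 (42.6%) in Ppy+ against Sst+, 14 (69.3%) in Ins2+ against Sst+ and 11 (35.1%) in Ppy+Sst+ against Ppy+ cells. Without the hormone genes 10 (32.9%) passed in Ppy+ against Sst+, 10 (24.9%) in Ppy+Sst+ and 9 (13.1%) in Ppy+Ins2+ against Ppy+ cells. With cells thinned to 1000 UMIs, which left 10 members testable, the counts of members passing were 3 (Ppy+ against Gcg+), 2 (Ppy+ against Ins2+), 2 (Ppy+ against Sst+), 2 (Gcg+ against Ins2+), 4 (Gcg+ against Sst+), 2 (Ins2+ against Sst+), 2 (Ppy+Gcg+ against Ppy+), 2 (Ppy+Sst+ against Ppy+) and 0 (Ppy+Ins2+ against Ppy+). With no replicate block they were 5 (Ppy+ against Ins2+), 3 (Ppy+Sst+ against Ppy+) and 1 (Ppy+Ins2+ against Ppy+). With the library as a block they were 4 (Ppy+ against Ins2+) and 1 (Ppy+Ins2+ against Ppy+). A fit on 1 experiment gives a fold and no test. Counts of members given without a share of all genes, in bulk as well, are not read as particular to the members. In bulk a log2 threshold of 0.5 gave 23 members (48.7% of all genes), leaving out each library gave 13 to 15, and no filter on low counts gave 17 of 58 tested (24.3% of all genes). Replicate numbers did not pair the bulk libraries (correlations of same-numbered deviations -0.101, 0.064 and -0.274), and with the replicate block 15 members passed, 9 of them higher in γ, and the calls of Slc38a3 (-2.02), Slc3a1 (-2.53) and Slc38a11 (-0.81) were lost. The alternative that also left out later clusters led by non-endocrine markers was chosen after seeing the data. In single cells 40 of 63 members had too few UMIs to test, which does not tell low depth from absent expression. The share of all genes passing moved too, for Ppy+ against Gcg+ cells from 12.9% to 4.74% with the library as a block, 7.87% with no replicate block and 7.86% with DESeq2. For Ppy+ against Ins2+ cells it went from 26.7% to 16.8% with the library as a block and 12.2% with thinned cells, and for Ppy+ against Sst+ cells from 11.9% to 5.42% and, with no replicate block, to 7.77%. For Ppy+Gcg+ against Ppy+ cells it went from 3.1% to 1.11% with no replicate block, and for Ppy+Sst+ cells from 7.72% to 4.17%.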
